A study of Mus musculus with 11 samples.

Results

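The genes described here are 34 neuronal adhesion molecules of the immunoglobulin superfamily that lie outside the JAM, Dscam, sidekick and contactin families. They were chosen by gene symbol, with earlier results of these data known, and all 34 symbols were among the 24421 genes of each count table. The cells were J-RGCs, a retinal ganglion cell (RGC) type marked in mouse by expression of the adhesion gene Jam2, isolated by flow cytometry at postnatal day 4 to 5 with a green fluorescent reporter from a transgenic line specific for them. The tested animals were Tbr1 KO mice and the controls were WT mice, all carrying the same reporter on a mixed C57BL/6 and CD1 background. Pools of 100 sorted cells gave 6 libraries from 4 KO animals and 5 libraries from 4 WT animals, which are named a to d within each genotype. KO animal a gave KO libraries 1 and 2, KO animal b gave 3 and 4, and KO animals c and d gave 1 library each, numbered 5 and 6. WT animal b gave WT libraries 2 and 3, and WT animals a, c and d gave 1 each, numbered 1, 4 and 5. Pools of the same animal were summed, so each comparison set 4 KO animals against 4 WT animals, and p-values measure the spread between animals.

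Immunoglobulin superfamily adhesion molecules are cell surface proteins whose extracellular immunoglobulin domains bind the same protein (homophilic binding) or a relative on another cell. Some cross the membrane and reach the cytoskeleton through ankyrins or through PDZ-domain scaffolds, while others, such as the IgLONs and MDGAs, are held by a lipid (GPI) anchor. In neurons they are known for axon bundling, for the growth and targeting of neurites, and for the assembly and spacing of synapses. In the retina, ganglion cell axons carry several of them on the way to the optic nerve, and related immunoglobulin proteins help dendrites settle in their layer. Tbr1 encodes a T-box transcription factor, and the comparison asks which of these transcripts differ in J-RGCs that lack it.

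Reads on genes ranged from 8609845 to 34718693 per library. Levels are CPM, gene counts as a share of a TMM-scaled library total of a common size, unless given per kb. Tbr1 averaged 120 ± 23.4 CPM in KO animals and 170 ± 16.5 CPM in WT animals (SD, n = 4 each), with a log2 fold change of -0.50 ± 0.15 (SE) at 0.368 after Benjamini-Hochberg adjustment of the edgeR p. Which segment of the gene the mutation removes is not in the labels, and reads outside it would still be counted, so the genotype of a library cannot be read from its Tbr1 level. Jam2 averaged 107 ± 21.5 CPM in KO animals and 528 ± 85.6 CPM in WT animals (edgeR Benjamini-Hochberg adjusted p 6.4e-05), and pan-RGC markers had summed levels of 20772 to 22648 CPM in KO animals and 19968 to 23286 CPM in WT animals. Within that list Nefl averaged 6121 CPM in KO animals and 5029.8 CPM in WT animals, and 8 of 22 markers had an unadjusted edgeR p under 0.05 (3 higher and 5 lower), beside 7.09% of all tested genes, with none called. In pools of cells a gene's level cannot separate fewer cells of a type from less RNA per cell.

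None of the adhesion genes passed the test over all genes. A total of 33 of the 34 passed the filter on low counts and were tested, all but Kirrel2. At an adjusted p under 0.05 in edgeR's quasi-likelihood test, 0 of 33 were called, beside 0.287% of all 13957 tested genes (0.086% higher and 0.201% lower in KO animals). On the same animals DESeq2 called 3 (Cadm1, Kirrel3 and Mdga2), beside 156 of 13896 genes in all. Limma voom called 2 (Cadm1 and Kirrel3), beside 46 of 13957 genes in all. At an unadjusted edgeR p under 0.05 there were 7, beside 7.09% of all tested genes. All 7 were higher in KO animals (Cadm1, Kirrel3, Mdga2, Lsamp, Igsf21, Cadm2 and Igsf9b), beside 3.4% of all tested genes that were higher and 3.7% that were lower at that level.

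Animals of the genotypes did not overlap for 6 genes, beside 5.06% of all tested genes. Values were higher in every KO animal for 5 of them (Cadm1, Kirrel3, Mdga2, Lsamp and Cadm2), beside 2.58% of tested genes in that direction. Ncam2 alone had lower values in every KO animal, beside 2.48% of tested genes. For each of these 6 genes an exact two-sided permutation test over animals gave p = 0.0286, and no split of 8 animals into 4 and 4 can give less. Any gene without overlap gets this p, so it restates how the 6 were picked. The log2 fold change was positive for 23 of the 33 tested genes and negative for 10, beside 49.9% positive over all tested genes. Its median was 0.32, beside -0.00071 over all tested genes. This median moved with the setting, to 0.17 without KO animal d, 0.21 with limma voom on animals and 0.34 without the filter. With at least 1 CPM required in all animals of a genotype it was 0.18, with 17 genes positive and 10 negative. The median size of the log2 fold change, without its sign, was 0.35 for the adhesion genes and 0.24 for all tested genes. These counts describe the genes that passed the filter, and low genes with wide errors are among them.

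**Figure D1:**
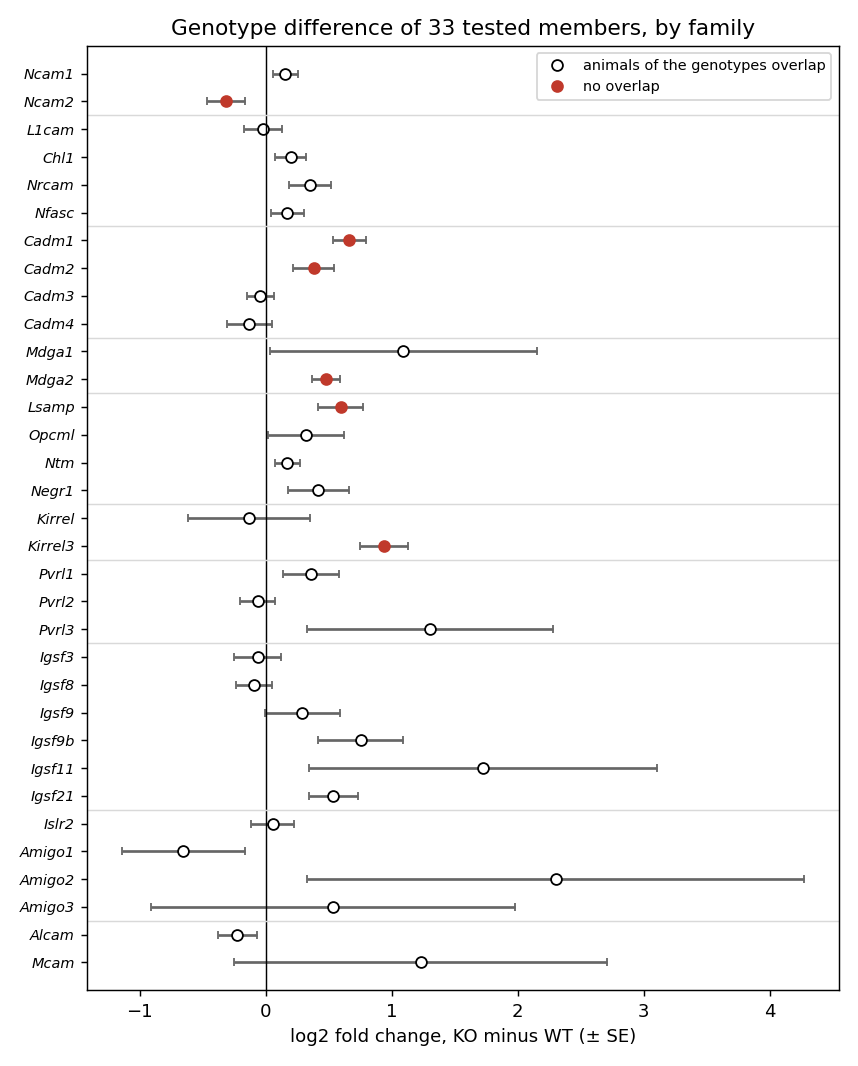
Log2 fold change (KO minus WT, ± SE) of each of the 33 tested adhesion genes, grouped by family and drawn from 4 KO and 4 WT animals. Filled points are the 6 genes whose animals do not overlap between genotypes. Kirrel3 has the highest value among these 6, at 0.94, and Ncam2 is the one below 0, at -0.32. The widest error bars belong to genes under 5 CPM such as Amigo2, Igsf11 and Mcam.

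The set differed widely in level, which is compared between genes per kb of merged exons. Ncam1 stood first, at 287 ± 17.9 CPM per kb in KO animals and 258 ± 29.5 CPM per kb in WT animals (SD, n = 4 each), and no WT value of another member reached its lowest WT value. Behind it came L1cam (68.8 ± 11.8 in KO, 69.9 ± 12.2 in WT), Ntm (76.0 ± 7.18 in KO, 67.5 ± 2.23 in WT), Pvrl2 (56.7 ± 5.66 in KO, 59.2 ± 9.82 in WT) and Cadm3 (52.5 ± 3.67 in KO, 54.0 ± 4.80 in WT), all in CPM per kb. In WT animals each of the genes from L1cam down to Alcam, place 2 to 11, overlapped its neighbour in the order, so the order of neighbours is not resolved. Genes further apart could differ by this length. The lowest WT value of L1cam, 54.3 CPM per kb, was above the highest of Cadm1, 40.6, and of Alcam, 29.2. A gap followed Alcam, which was at 22.5 ± 4.92 CPM per kb in KO animals and 26.3 ± 2.50 in WT animals, before Chl1 at 14.9 ± 1.20 in KO animals and 13.0 ± 1.52 in WT animals.

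The middle of the order, from Chl1 down to Negr1, lay between 3.59 (Negr1) and 15.0 (Nrcam) CPM per kb in KO animals and between 2.69 (Negr1) and 13.0 (Chl1) CPM per kb in WT animals, with Kirrel3 at 13.1 ± 1.36 in KO animals and 6.84 ± 1.66 in WT animals. Igsf9b followed at 2.30 ± 1.18 in KO animals, where it overlapped Negr1, and 1.36 ± 0.243 in WT animals, where it did not. At the bottom were Kirrel, Amigo3, Amigo2, Igsf11, Mdga1, Pvrl3, Mcam and Kirrel2, which averaged under 1.5 CPM per kb in both genotypes. The order uses all annotated exons, and with the longest transcript as the length Cadm1 took place 4 in WT animals in place of 10. With that length the WT values of L1cam and Cadm1 overlapped, so their separation depends on the length used.

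**Figure D2:**
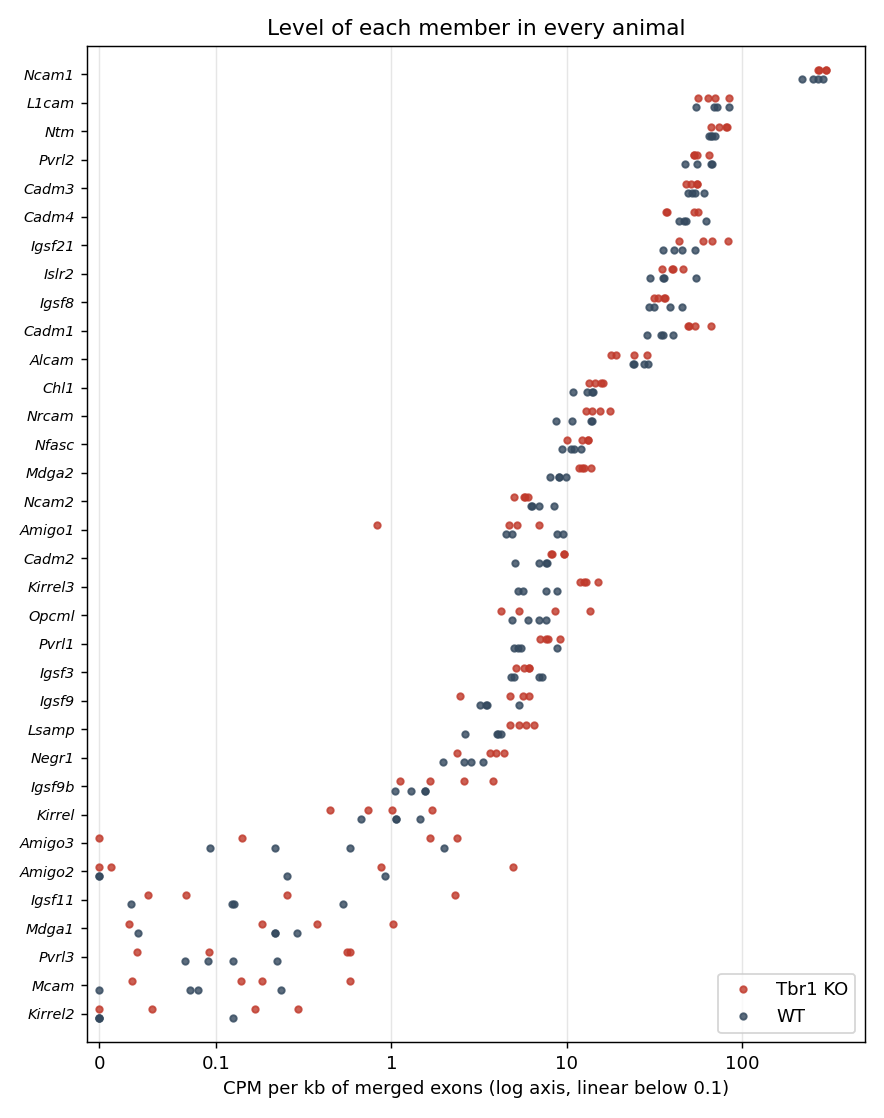
Level of each of the 34 adhesion genes in every animal (CPM per kb of merged exons, log axis with a linear part below 0.1), with genes in the order of their WT mean and KO points above WT points. Ncam1 lies apart at the top, and the genes at the bottom scatter widely within a genotype, some with an animal at 0.

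The Cadm family encodes SynCAM (nectin-like) proteins, which bind each other across the synaptic cleft and bind PDZ and FERM proteins inside the cell. Cadm1 (GRCm38 chromosome 9, 47530173 to 47857637) was at 514, 567, 524 and 694 CPM in KO animals a to d, against 301, 423, 360 and 369 CPM in WT animals a to d. All KO animals lay above all WT animals, and KO animal d was the highest. The log2 fold change was 0.66 ± 0.13 (SE), a 1.58-fold difference, with an edgeR Benjamini-Hochberg adjusted p of 0.0759. Both pools of KO animals a and b lay above both pools of WT animal b, at 539 and 470 CPM in KO a, 578 and 554 CPM in KO b and 422 and 423 CPM in WT b.

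Cadm2 (chromosome 16, 66655421 to 67620908) was at 94.3, 94.7, 80.9 and 79.9 CPM in KO animals a to d, against 75.5, 50.04, 75.3 and 68.1 CPM in WT animals a to d. The genotypes were close to touching, with KO animal d just above WT animals a and c, and the log2 fold change was 0.38 ± 0.17 (SE) at an edgeR Benjamini-Hochberg adjusted p of 0.676. Cadm3 was at 380.3 ± 26.6 CPM in KO animals and 391.5 ± 34.8 CPM in WT animals (SD, n = 4 each), a log2 difference of -0.04 with a 95% interval of -0.27 to 0.18. Cadm4, the family member known for contacts between axons and Schwann cells, was at 99.0 ± 22.1 CPM in KO animals and 108 ± 17.9 CPM in WT animals. Within this family the 2 genes with no overlap were Cadm1 and Cadm2, and whether their differences exceed those of Cadm3 and Cadm4 was not tested.

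Kirrel proteins are relatives of nephrin that bind each other homophilically and guide the sorting of axons and synapses in the olfactory and hippocampal systems of mice. Kirrel3 (chromosome 9, 34485894 to 35036716) was at 82.8, 97.1, 77.0 and 81.1 CPM in KO animals a to d, against 36.4, 34.2, 49.2 and 56.8 CPM in WT animals a to d. The lowest KO animal was c and the highest WT animal was d, and the genotypes did not overlap. The log2 fold change was 0.94 ± 0.19 (SE), a 1.91-fold difference, with an edgeR Benjamini-Hochberg adjusted p of 0.0835. Its pools varied within animals, at 101 and 48.6 CPM in KO animal a, 106 and 83.3 CPM in KO animal b and 38.4 and 19.2 CPM in WT animal b. The KO pool at 48.6 CPM was within the range of the WT animals. Kirrel was low, at 7.25 ± 4.01 CPM in KO animals and 7.93 ± 2.41 CPM in WT animals (SD, n = 4 each). Kirrel2 had at most 1.16 CPM in a KO animal and 0.494 CPM in a WT animal, and 1 KO animal and 3 WT animals had no count.

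MDGA proteins are GPI-anchored and are known to bind neuroligins and so keep neurexins from them, which restrains synapse formation. Mdga2 (chromosome 12, 66466060 to 67222549) was at 231, 253, 223 and 215 CPM in KO animals a to d, against 146, 166, 166 and 182 CPM in WT animals a to d. Spread within a genotype was small, the lowest KO animal (d) lay above the highest WT animal (d), and the log2 fold change was 0.48 ± 0.11 (SE) with an edgeR Benjamini-Hochberg adjusted p of 0.170. In the 2 pools of WT animal b, Mdga2 was at 150.5 and 219 CPM, so the pool of library 3 was within the range of the KO animals. Mdga1 was near the limit of detection, at 0.245 to 9.78 CPM in KO animals and 0.319 to 2.75 CPM in WT animals. Mdga2 overlaps the predicted gene Gm19001 on the opposite strand, and reads of the pair cannot be told apart without strand.

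IgLONs are GPI-anchored proteins with homophilic and heterophilic binding that shape neurite outgrowth. Lsamp (chromosome 16, 39984361 to 42181679), which encodes the limbic system-associated membrane protein, was at 92.7, 100.5, 81.9 and 113 CPM in KO animals a to d, against 45.6, 72.8, 69.8 and 68.7 CPM in WT animals a to d. WT animal a was far below the other WT animals, and the closest pair was KO animal c and WT animal b. Single libraries of the genotypes overlapped, with KO library 2 at 76.7 CPM and WT library 2 at 78.9 CPM. The log2 fold change was 0.59 ± 0.18 (SE) with an edgeR Benjamini-Hochberg adjusted p of 0.357. Without WT animal a it was 0.47, with an edgeR adjusted p of 0.460.

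Ntm, which encodes neurotrimin and has the highest level per kb among IgLONs, was at 599, 656, 538 and 662 CPM in KO animals a to d, against 539, 548, 568 and 525 CPM in WT animals a to d. The genotypes overlapped through KO animal c, and the log2 difference was 0.17 with a 95% interval of -0.04 to 0.38. Opcml spread most within KO animals, at 61.7, 77.4, 125 and 199 CPM in animals a to d, against 71.2 to 111 CPM in WT animals. Negr1, which has been tied to body weight in human studies, was at 37.8 ± 8.998 CPM in KO animals and 28.3 ± 5.93 CPM in WT animals (SD, n = 4 each). All 4 IgLONs had positive log2 fold changes, of 0.17 to 0.59, and none was called. That of Opcml, 0.32, was -0.075 without KO animal d and -0.069 with a photoreceptor marker covariate.

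**Figure D3:**
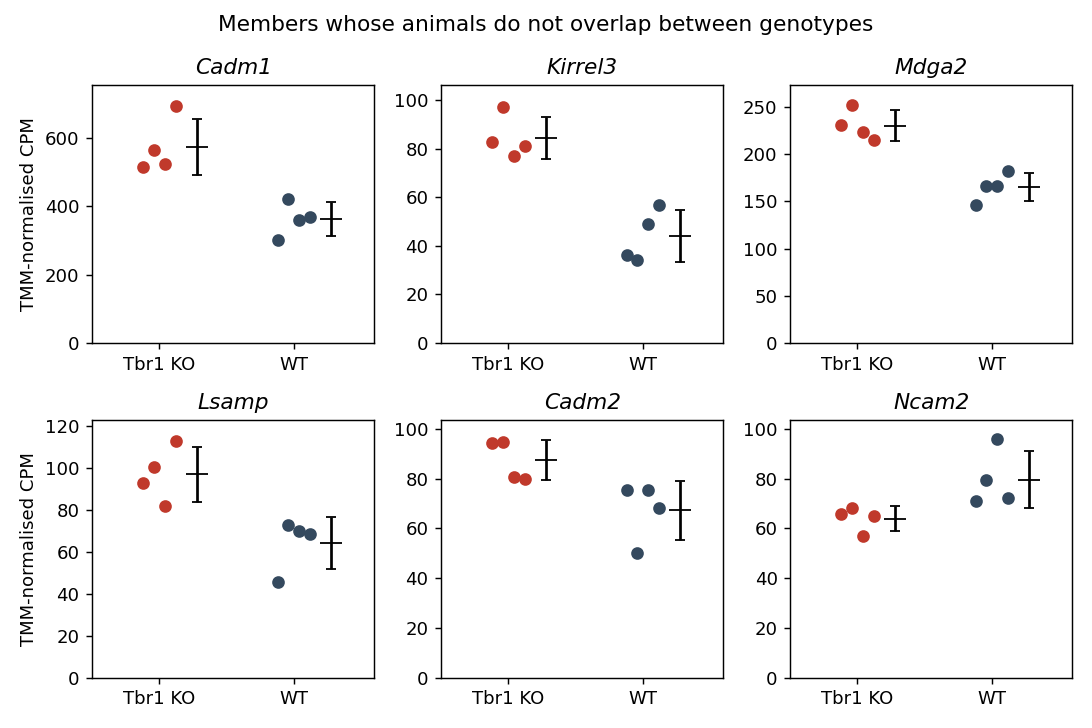
TMM-normalised CPM of the 6 adhesion genes whose animals do not overlap between genotypes, with 1 point per animal, and the mean ± SD of 4 animals beside the points. Cadm1, Kirrel3, Mdga2, Lsamp and Cadm2 are higher in every KO animal, while Ncam2 is lower in every KO animal, and the gap is narrowest for Ncam2 and Cadm2.

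NCAM proteins bind homophilically, and the product of Ncam1 carries polysialic acid, which loosens adhesion in developing axons. Ncam1, the most abundant of the set, was at 2626, 2376, 2339 and 2622 CPM in KO animals a to d, against 2497, 2341, 1895 and 2211 CPM in WT animals a to d. The genotypes overlapped, WT animal c was the lowest, and the log2 difference was 0.16 with a 95% interval of -0.06 to 0.37. Ncam1 overlaps the predicted gene Gm11149 on the opposite strand. Ncam2 (chromosome 16, 81200697 to 81626828) was at 65.7, 68.2, 56.9 and 65.0 CPM in KO animals a to d, against 70.9, 79.3, 95.9 and 72.3 CPM in WT animals a to d. The gap between the genotypes was small, and the log2 fold change was -0.32 ± 0.15 (SE) with an edgeR Benjamini-Hochberg adjusted p of 0.737. The pools of KO animal a held 81.1 and 37.0 CPM of Ncam2, a 2.19-fold difference within 1 animal, and the higher pool was within the range of the WT animals.

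The L1 family proteins bind homophilically on axons and reach the spectrin cytoskeleton through ankyrins, and Nfasc and Nrcam are known for the assembly of the axon initial segment. L1cam was at 513, 620.5, 414 and 473 CPM in KO animals a to d, against 616, 399, 533 and 507 CPM in WT animals a to d. The ranges coincided, and the 95% interval of the log2 difference was -0.35 to 0.30. The other members gave positive log2 fold changes with overlapping animals, 0.20 ± 0.12 for Chl1, 0.35 ± 0.16 for Nrcam and 0.17 ± 0.13 for Nfasc (SE). Nrcam was at 208, 236, 187 and 173 CPM in KO animals a to d, against 116, 143, 184 and 186 CPM in WT animals a to d, where WT animals c and d lay within the KO range.

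Nectins are junctional adhesion proteins that bind each other across cells and the actin adaptor afadin inside them. Pvrl2 (nectin 2), with the highest level per kb of the 3, was at 187, 227, 185 and 193 CPM in KO animals a to d, against 232, 237, 164 and 194 CPM in WT animals a to d. Its 95% interval of the log2 difference was -0.36 to 0.24. Pvrl2 overlaps the predicted gene Gm20512 on the opposite strand. Pvrl1 was at 44.7 ± 4.98 CPM in KO animals and 34.8 ± 10.1 CPM in WT animals (SD, n = 4 each), and Pvrl3 at 0.415 to 7.46 CPM in KO animals and 0.942 to 2.82 CPM in WT animals.

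The Igsf genes encode proteins of varied function. Igsf21, whose product binds a neurexin and is known for inhibitory presynaptic organisation in mice, was at 134, 119, 165 and 87.1 CPM in KO animals a to d, against 80.9, 70.2, 89.8 and 107 CPM in WT animals a to d. KO animal d lay within the WT range, and the log2 fold change was 0.54 ± 0.20 (SE) with an edgeR Benjamini-Hochberg adjusted p of 0.543 and an exact permutation p of 0.0857. Igsf9b, which encodes an adhesion protein of inhibitory synapses, was at 27.9, 18.8, 43.2 and 63.8 CPM in KO animals a to d, against 17.5, 21.5, 26.1 and 25.8 CPM in WT animals a to d. Here KO animals c and d stood high and KO animal b lay within the WT range. The log2 difference for Igsf9b was 0.75 ± 0.34 (SE), at an edgeR adjusted p of 0.689. It was 0.40 without KO animal d, and 2 of the 8 fits without 1 animal kept an unadjusted edgeR p under 0.05. Igsf8, whose product associates with tetraspanins, and Igsf3 had 95% intervals of -0.40 to 0.22 and -0.47 to 0.34 for the log2 difference. Igsf3 overlaps the predicted gene Gm42538 on the opposite strand. Igsf9 was at 16.2 to 40.2 CPM in KO animals and 21.1 to 35.4 CPM in WT animals. Igsf11 was at 10.4 CPM in KO animal c and at most 1.15 CPM in the other KO animals, against 0.121 to 2.39 CPM in WT animals.

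Islr2 and the Amigo genes encode proteins with leucine-rich repeats beside an immunoglobulin domain. Islr2, which encodes the axonal protein Linx, was at 240.3, 206, 273 and 237 CPM in KO animals a to d, against 322, 214, 176 and 210 CPM in WT animals a to d. WT animals a and c enclosed the KO range. Islr2 overlaps Islr on its own strand and a clone gene on the other, so some of its reads may belong to either. Amigo1, whose product binds homophilically and promotes neurite growth, was at 28.7, 26.1, 38.3 and 4.61 CPM in KO animals a to d, against 53.1, 25.04, 27.0 and 49.0 CPM in WT animals a to d, a log2 fold change of -0.66 ± 0.49 (SE), and of -0.31 without KO animal d. Amigo2 and Amigo3 were at 0 to 15.7 and 0 to 6.06 CPM in KO animals and at 0 to 2.92 and 0.242 to 5.09 CPM in WT animals.

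Alcam, which is known for the bundling and guidance of ganglion cell axons, was at 204, 136, 128 and 172 CPM in KO animals a to d, against 208, 196, 173 and 171 CPM in WT animals a to d. KO animals b and c were below every WT animal and KO animals a and d were not, and the 95% interval of the log2 difference was -0.56 to 0.11. Mcam, best known from blood vessels and melanoma, was at 0.0940 to 1.96 CPM in KO animals and 0 to 0.785 CPM in WT animals.

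Upstream sequence is shown for the genes with no overlap between genotypes that have an entry in the promoter table (Mdga2, Lsamp, Cadm2 and Ncam2), beside Pvrl2, the one member with a T-box match. Each is 250 bases before to 50 after a RefSeq transcription start (build GRCm38.p6), written 5′ to 3′ along the gene's strand, and capitals mark the match. The regions are chr12:67222500-67222799 on the minus strand for Mdga2, chr16:39984114-39984413 on the plus strand for Lsamp, chr16:67620859-67621158 on the minus strand for Cadm2, chr16:81200447-81200746 on the plus strand for Ncam2 and chr7:19749524-19749823 on the minus strand for Pvrl2.
Mdga2: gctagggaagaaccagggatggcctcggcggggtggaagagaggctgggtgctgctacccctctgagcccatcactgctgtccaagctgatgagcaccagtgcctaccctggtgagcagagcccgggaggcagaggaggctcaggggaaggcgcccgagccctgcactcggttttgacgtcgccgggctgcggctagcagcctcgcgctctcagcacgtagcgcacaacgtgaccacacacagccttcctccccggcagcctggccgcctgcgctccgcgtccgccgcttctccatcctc
Lsamp: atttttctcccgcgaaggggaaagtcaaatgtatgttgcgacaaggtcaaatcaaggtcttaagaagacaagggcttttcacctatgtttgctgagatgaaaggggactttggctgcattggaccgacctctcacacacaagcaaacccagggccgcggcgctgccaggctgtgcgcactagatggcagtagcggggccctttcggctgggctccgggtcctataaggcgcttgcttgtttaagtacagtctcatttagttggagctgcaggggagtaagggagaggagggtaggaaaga
Cadm2: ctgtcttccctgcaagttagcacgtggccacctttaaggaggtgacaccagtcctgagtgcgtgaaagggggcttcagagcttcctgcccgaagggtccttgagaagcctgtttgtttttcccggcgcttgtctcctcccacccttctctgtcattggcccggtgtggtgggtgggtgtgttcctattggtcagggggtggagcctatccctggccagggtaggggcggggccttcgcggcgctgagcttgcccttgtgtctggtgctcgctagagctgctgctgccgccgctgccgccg
Ncam2: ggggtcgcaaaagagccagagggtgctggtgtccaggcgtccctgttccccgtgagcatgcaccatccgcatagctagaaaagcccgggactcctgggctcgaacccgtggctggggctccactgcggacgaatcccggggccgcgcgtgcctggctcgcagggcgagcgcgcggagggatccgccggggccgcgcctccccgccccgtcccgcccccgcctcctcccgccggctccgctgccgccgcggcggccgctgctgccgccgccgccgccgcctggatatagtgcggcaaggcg
Pvrl2: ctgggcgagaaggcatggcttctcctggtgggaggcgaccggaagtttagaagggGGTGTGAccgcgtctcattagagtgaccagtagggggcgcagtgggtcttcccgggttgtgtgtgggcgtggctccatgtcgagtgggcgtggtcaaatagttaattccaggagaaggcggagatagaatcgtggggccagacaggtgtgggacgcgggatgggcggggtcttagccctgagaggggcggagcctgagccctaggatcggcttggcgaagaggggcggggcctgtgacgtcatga

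The T-box half-site AGGTGTGA and its core GGTGTGA, which lies within it, were searched on both strands. The half-site was in 1.28% of the 32851 promoters of the table and in 0 of the 35 promoters found for 29 of the adhesion genes. The core was in 3.98% of all promoters and in 1 of these 35, that of Pvrl2, where it begins at position -195 relative to the start. G and C made up 67.7% of the window of Mdga2, 53.0% of that shown for Lsamp, 62.7% for Cadm2 and 75.7% for Ncam2. The median over the table was 52.7%. A second Lsamp window, chr16:41532576-41532875 on the plus strand, is not shown and held 56.3%. These matches are letters in a window, and nothing here measured binding.

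Genes that work with these proteins were examined as 6 lists. Of 25 scaffolds that bind Cadm proteins and nectins, 1 gene was called, beside 0.287% of all tested genes. At an unadjusted edgeR p under 0.05 there were 4, beside 7.09%, and 3 did not overlap between genotypes, beside 5.06%. Magi1, which encodes a PDZ scaffold of cell junctions, fell to 115.6 ± 21.4 CPM in KO animals, against 251 ± 44.9 CPM in WT animals (SD, n = 4 each). Its log2 fold change was -1.12 ± 0.16 (SE) with an edgeR Benjamini-Hochberg adjusted p of 0.0114. In the edgeR fits that left out 1 animal the call was lost without KO animal a (0.0552), KO animal b (0.0703) or WT animal b (0.0615).

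Lin7a and Lin7b encode small PDZ proteins that join Cask in a complex at the membrane. Lin7a was at 55.6 to 77.0 CPM in KO animals and 99.6 to 119 CPM in WT animals, and Lin7b at 10.1 to 13.9 CPM in KO animals and 19.0 to 27.7 CPM in WT animals. Neither overlapped between genotypes, and their log2 fold changes were -0.69 ± 0.16 and -0.95 ± 0.26 (SE) at edgeR Benjamini-Hochberg adjusted p of 0.144 and 0.285, and DESeq2 called Lin7a beside Magi1. The median log2 fold change of the 25 scaffolds was -0.05, with 10 positive and 15 negative.

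The other 5 lists held 0 called genes by the edgeR test among 11 ankyrin, spectrin and ERM linkers, 10 genes of NCAM and L1 signalling and polysialylation, 12 synaptic partners of MDGA and Igsf proteins, 10 sheddase and gamma-secretase genes and 13 related immunoglobulin adhesion genes, counted over tested members. At an unadjusted edgeR p under 0.05 they held 0, 1, 2, 0 and 1 genes in that order, beside 7.09% of all tested genes. DESeq2 and limma voom also called 0 of them. Ncan, which encodes the matrix proteoglycan neurocan that binds NCAM and L1 proteins, was at 728 to 986 CPM in KO animals and 772 to 1795 CPM in WT animals. Kcnb2, which encodes a voltage-gated potassium channel subunit, was at 8.87 to 22.1 CPM in KO animals and 23.0 to 34.4 CPM in WT animals, with no overlap and an edgeR Benjamini-Hochberg adjusted p of 0.504. Thy1, a GPI-anchored surface protein used as an RGC marker, was at 259.7 to 359 CPM in KO animals and 382 to 458 CPM in WT animals, also with no overlap, at an edgeR adjusted p of 0.355. Nrxn3, a neurexin, was at 154 ± 50.3 CPM in KO animals and 107 ± 23.8 CPM in WT animals (SD, n = 4 each). Among the sheddase and gamma-secretase genes Ncstn, which encodes nicastrin, had the lowest p, with a log2 fold change of -0.30 ± 0.15 (SE).

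Markers of other retinal cells were summed in the same animals, and the sums of horizontal and amacrine markers did not overlap between genotypes. The mean log2 level of each list had an exact permutation p of 0.257 for horizontal, 0.943 for amacrine, 0.429 for Müller glia, 0.486 for bipolar, 0.171 for photoreceptor and 0.0857 for astrocyte, vascular and microglial markers. Horizontal cell markers summed to 97.0 to 135 CPM in KO animals and 48.0 to 71.7 CPM in WT animals, with positive log2 fold changes for all 5 tested of 6 listed and with Lhx1 at 0 in every animal. Amacrine markers summed to 609 to 852 CPM in KO animals and 296 to 549.7 CPM in WT animals, and 5 of 6 tested of 11 listed were positive. The mean log2 CPM over the tested amacrine markers was 2.93 ± 1.19 in KO animals and 2.97 ± 0.541 in WT animals (SD, n = 4 each). Müller glia and progenitor markers summed to 547 to 935 CPM in KO animals and 385 to 549.9 CPM in WT animals, with 14 of 16 tested positive and Dkk3 and Clu called. Bipolar markers, mostly Isl1, which ganglion cells also express, summed to 749 to 991 CPM in KO animals and 865 to 1210.1 CPM in WT animals, with positive log2 fold changes for 4 of 5 tested. Astrocyte, vascular and microglial markers summed to 16.5 to 52.5 CPM in KO animals and 30.4 to 97.5 CPM in WT animals, with 0 of 9 tested positive and with Cdh5, Pdgfrb and Ptprc at 0 in every WT animal. Their part in the higher values of Cadm1, Kirrel3, Mdga2, Lsamp and Cadm2 was not tested.

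Photoreceptor markers summed to 71.9, 345, 1375 and 381 CPM in KO animals a to d, against 79.9, 105, 149 and 411 CPM in WT animals a to d. All 17 tested of 20 listed had positive log2 fold changes, with Opn1mw at 0 in every animal and Pde6h and Arr3 at 0 in every WT animal. KO animal c, the highest, was also the highest of all animals for Igsf21, Igsf11, Amigo2, Mcam and Kirrel2. With the mean of these markers as a covariate the log2 fold change was 0.61 for Cadm1, 0.81 for Kirrel3, 0.43 for Mdga2, 0.53 for Lsamp and 0.40 for Cadm2. Their edgeR Benjamini-Hochberg adjusted p was then 0.337, 0.309, 0.589, 0.924 and 0.9999 in that order. Without KO animal c the log2 fold change was 0.71, 0.98, 0.50, 0.67 and 0.42 in that order. That of Igsf21 was then 0.39, against 0.54 with all animals.

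Agreement between the 2 pools of the same animal followed the level. Of the 34 genes, 26 averaged 20 CPM or more over all animals, and among their 78 pool pairs the median ratio of the higher to the lower pool was 1.18, with 2 pairs over 2-fold (Ncam2 and Kirrel3 in KO animal a). The other 8 genes gave 24 pool pairs, of which 9 differed by over 2-fold, 5 had 1 pool at 0 and 4 had both pools at 0. Kirrel, for example, had 149 counts in KO library 1 and 0 in KO library 2 of the same animal, and Amigo3 had 267 and 5. In WT animal b, Pvrl3 had 0 counts in library 2 and 46 in library 3. Values of Kirrel, Kirrel2, Mdga1, Pvrl3, Igsf11, Amigo2, Amigo3 and Mcam are given with that spread, and no difference between genotypes was detected for the 7 of them that were tested.

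**Figure D4:**
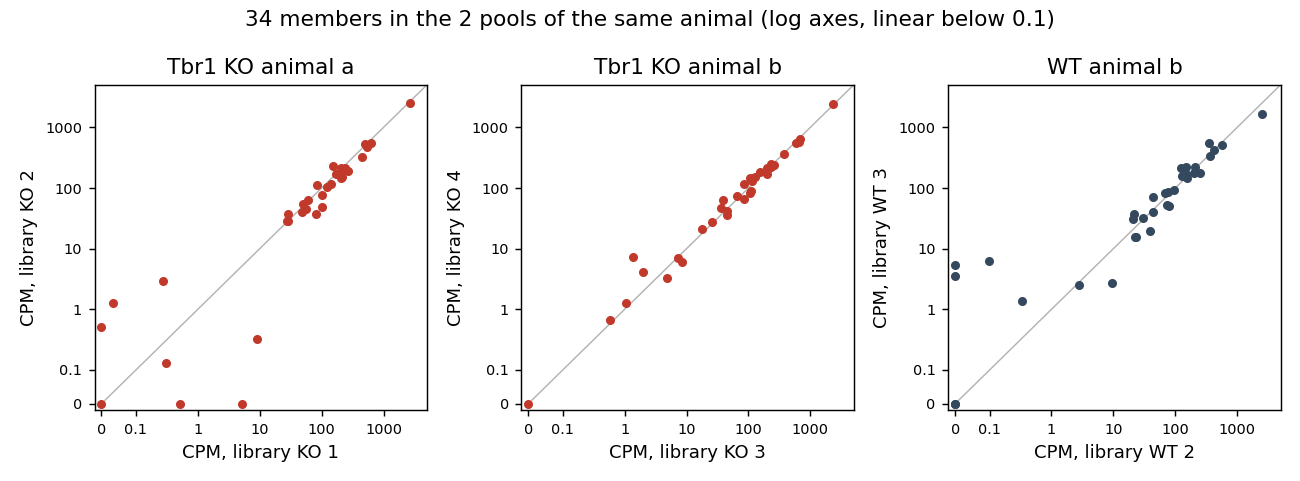
CPM of the 34 adhesion genes in the 2 pools of KO animal a, KO animal b and WT animal b (log axes with a linear part below 0.1), with the line of equal values. Genes above about 20 CPM lie near the line, and genes below scatter away from it, some with a pool at 0.

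The calls of the highest-ranked genes moved with the setting. Over the 8 fits that left out 1 animal, the edgeR Benjamini-Hochberg adjusted p ran from 0.0977 to 0.243 for Cadm1, from 0.0707 to 0.328 for Kirrel3, from 0.235 to 0.484 for Mdga2 and from 0.431 to 0.668 for Lsamp. Their log2 fold changes stayed positive in all of these fits, from 0.56 to 0.74 for Cadm1, 0.83 to 1.09 for Kirrel3, 0.43 to 0.53 for Mdga2 and 0.47 to 0.67 for Lsamp. Igsf21, whose animals overlap between genotypes, was called in 1 setting.

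**Figure D5:**
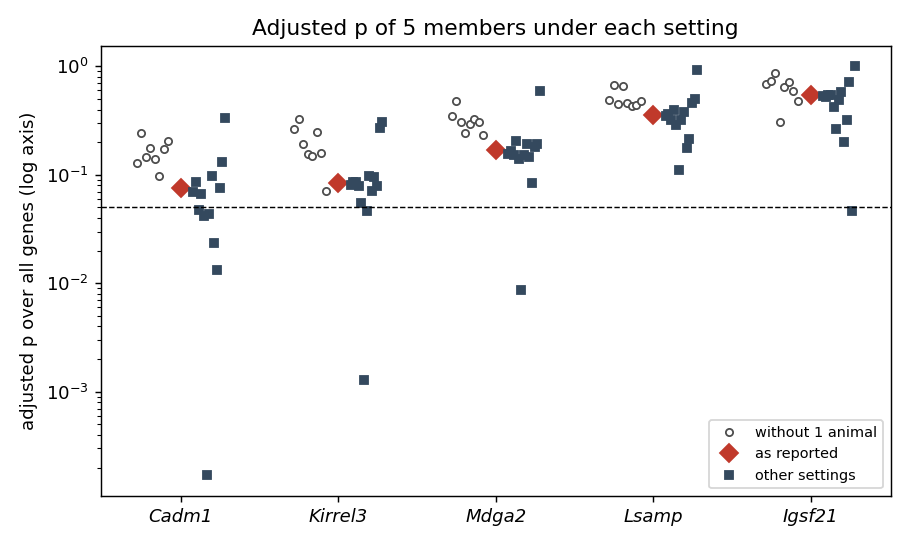
Adjusted p over all genes (log axis) of Cadm1, Kirrel3, Mdga2, Lsamp and Igsf21 as reported (diamond), without each of the 8 animals in turn (open circles) and under 13 other settings (squares), with the threshold of 0.05 dashed. The circles lie above the line for all 5 genes, while 6 squares of Cadm1, 2 of Kirrel3, 1 of Mdga2 and 1 of Igsf21 lie below it.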

How the data were processed

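RNA sequencing was measured in 11 libraries. The authors deposited raw read counts per gene symbol, 1 table per library. The submitters' processing notes name mm10 (GRCm38) and, as tools, HTSeq 0.6.1, TopHat2 2.0.10 and Trimmomatic 0.32. Per the labels' protocols libraries were made with Smart-seq2, which keeps no strand, and Nextera XT. The annotation used for counting was not given in the sources used here, and PCR duplicates were not marked. Reads on genes were 60.1% to 63.9% of those listed, and lines naming no gene were left out.

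Counts of 1 animal were summed. Genes passing filterByExpr (13957) were scaled by TMM and compared by quasi-likelihood with robust dispersion in edgeR 4.0.16 (R 4.3.3), with Benjamini-Hochberg adjustment over all of them. The standard error is the log2 fold change divided by the square root of F, and its 95% interval uses the fit's degrees of freedom. The common biological coefficient of variation was 0.566. Log2 CPM for the permutation tests used a prior count of 0.5, over 70 splits. Alternatives included DESeq2 1.42.0 and limma 3.58.1. On data simulated for 4 against 4 animals (13658 genes) 41% of 100 genes given a 2-fold change were recovered, and 70% of 100 given a 4-fold change, beside 7 false calls. The changed genes were picked above a minimum count, and the simulated dispersion followed its trend with level, not each gene's own. These shares therefore do not describe single adhesion genes.

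Positions and exon lengths came from GENCODE M21 (GRCm38), where Pvrl1 to Pvrl3 are listed as nectins, and promoters from RefSeq. The adhesion genes and lists were chosen with earlier results of these data known. Values per animal are given for genes whose animals do not overlap and for the highest member of each family per kb. From each list of partners up to 3 genes are named, called genes first and then by p. Values of other genes were chosen after they were seen. Some genes that these rules name are not reported here. Plots were drawn with matplotlib 3.10.9.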

Additional observations from a re-analysis of the deposited data

Results flagged for a closer look

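Among 68 groups of 4 animals, 5 held a value far from the other 3, by the gap to its nearest neighbour as a share of the range, past the 95% limit of Dixon's test for 4 values. For normally distributed values, chance gives such a value in about 1 in 20 groups. In WT animal a, Lsamp was the lowest at 45.6 CPM, against 68.7 to 72.8 CPM in the other WT animals (share 0.851). The same animal was the highest for Pvrl1, at 49.9 CPM against 28.5 to 30.9 CPM in the others (share 0.887), and for Igsf9, at 35.4 CPM against 21.1 to 23.2 CPM in the others (share 0.852). In KO animal c, Igsf11 was the highest at 10.4 CPM, against 0.188 to 1.15 CPM in the other KO animals (share 0.906). Kirrel2 was counted in 1 WT animal, c, at 0.494 CPM (share 1.0). The other 3 WT animals were at 0, so any count in animal c would give this share.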

How the results depend on the processing

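Over all genes, 12 were called higher and 28 lower in KO animals. The number called higher was 21 with at least 1 CPM required in all animals of a genotype, 74 with DESeq2, 36 with 11 libraries as samples, 32 with limma voom and an animal correlation, 6 with the photoreceptor covariate and 21 at an adjusted p under 0.1. The number called lower was 82, 48 and 44 with DESeq2, the 11 libraries and limma voom with an animal correlation. Leaving out 1 animal gave 3 to 18 higher and 14 to 26 lower. Of the adhesion genes, 0 were called, against 3 with DESeq2, 2 with limma voom on animals or at an adjusted p under 0.1, and 1 each with library totals, the 1 CPM minimum, the 11 libraries and limma voom with an animal correlation (Cadm1 in each of these 4). Over all genes limma voom on animals called 46 of 13957, library totals 42 of 13957 and the 1 CPM minimum 54 of 11859. At an adjusted p under 0.1 there were 57 of 13957. Leaving out 1 animal gave 0 adhesion genes in all 8 fits. Replicate numbers did not pair the libraries (correlations of -0.03 to 0.14 over 5 pairs, and 1 KO library correlated best with its own number). With the replicate block 1 adhesion gene was called, Igsf21, beside 43 of 13829 genes in all.

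Signs of the log2 fold change turned for 13 genes. L1cam was 0.0091 with limma voom on animals, 0.035 with the 11 libraries, 0.043 with limma voom and an animal correlation, 0.031 with 1 library per animal, 0.069 with the replicate block and 0.023 with the photoreceptor covariate. With the block Cadm3 was 0.0099, Cadm4 0.061, Mdga1 -1.03, Opcml -0.20 and Igsf3 0.047. Igsf3 was 0.050 with the 11 libraries. With the covariate Opcml was -0.069, Pvrl2 0.022, Igsf11 -0.38 and Amigo2 -2.23, and Amigo3 was -0.35 with limma voom on animals. Without 1 animal in turn the values ran from -0.14 to 0.080 for L1cam, -0.083 to 0.023 for Cadm3, -0.54 to 0.11 for Kirrel, -0.15 to 0.041 for Igsf3, -0.16 to 0.0073 for Pvrl2, -0.055 to 0.26 for Islr2, -0.075 to 0.53 for Opcml, -0.18 to 0.037 for Igsf8, -0.70 to 2.85 for Igsf11, -0.0074 to 4.07 for Amigo2 and -0.27 to 1.81 for Amigo3. The cause was not tested. No scaling moved the median of all genes by over 0.1.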
